A study of Bos taurus with 4 samples.

Results

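The nuclear pore is a ring of nucleoporins that spans the nuclear envelope, and it is the passage for proteins and RNA between nucleus and cytoplasm. Importins and exportins carry cargo through it, the small GTPase Ran gives that traffic its direction, and messenger RNA leaves with a separate receptor. In lymphocytes this system brings signal-activated transcription factors into the nucleus and returns them to the cytoplasm.

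The genes described here are 55 nuclear pore and nuclear transport genes of cattle, chosen by name from a platform annotation table. They are the nucleoporins, importins, transportins and exportins written with a number (XPO5 apart), the numbered Ran-binding proteins, NXT and THOC genes, and RAN, RANGAP1, RCC1, NUTF2, CSE1L, TPR and NXF1. They stand among 9155 named genes, and they are measured by 86 of 24016 probe sets, a probe set being the group of oligonucleotides that reports on 1 transcript. KPNB1, NUP98 and RAE1, which the choice would have taken in, were not analysed here. The choice uses names and no measured value, but it was made with earlier results of these data known.

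The cells were gamma delta T cells, lymphocytes that abound in young ruminants. They came from 2 calves, 301 and 303, were sorted to a purity above 97% and rested overnight before 4 h with either an aqueous apple polyphenol extract (APP, 42.2 µg/ml) or phosphate-buffered saline (PBS). Each calf gave 1 PBS array and 1 APP array, 4 in all. The sampling protocol gives an age of 1 to 6 months, while the design text speaks of neonates. All 4 arrays hold sorted and rested cells, and each treatment was given in culture. The labels name no array batch, and a batch that followed treatment cannot be told apart from it. In such bulk RNA, fewer cells of a type and less RNA per cell cannot be told apart.

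Values are log2 ratios of a probe set to its own median over the 4 arrays, averaged over the probe sets of a gene. A ratio of this kind shows a change between arrays but not a level, so no gene can be called abundant or scarce, and the identity of the cells cannot be checked from marker levels. Among 8 measured gamma delta T cell markers, 1 rose and 5 fell with APP. Of 8 monocyte and dendritic cell markers 2 rose (CD14 by 0.46 and CD68 by 2.31), and of 3 B cell markers 2 fell. Among all genes 23% rose and 29.7% fell. The part of these marker changes in the results below was not tested. Spiked hybridization controls, added to each array in equal amount by the usual protocol, read higher under APP by 0.76 and 0.94 in calves 301 and 303 (log2). Scaling the arrays to them would move every gene by -0.85. "Rose" and "fell" below are therefore relative to the bulk of each array, and a rise below 0.85 takes a negative sign on that other scale.

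With APP, the nuclear transport genes split in both directions. Of the 55 genes, 18 rose, 14 fell and 23 did not pass limma's test (adjusted p under 0.05 over all genes, calf as a block), beside 52.7% of all genes called in either direction. The rises were 32.7% of the members beside 23% of all 9155 genes, and the falls 25.5% beside 29.7%. Their median change was -0.02 and that of all genes was 0.01. The median absolute change was 0.34, beside 0.32 over all genes. Rises ran from 0.29 (THOC3) to 1.23 (NUP93) and falls from -0.32 (THOC1) to -1.29 (IPO11), with limma standard errors of all members from 0.095 to 0.129. With 2 calves, a change that did not pass is not shown to be absent. Both APP arrays lay above both PBS arrays for 25 members (45.5%, beside 36.6% of all genes) and below them for 19 (34.5%, beside 37.2%). NUP93 and NXT1 rose, and NUP43 and IPO11 fell, 2-fold or more in each calf. That is 2 of 55 in each direction, beside 3.5% and 6.29% of all genes.

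The counts depended on the arrays and on the calf block. Without the block on all 4 arrays, 14 members rose and 11 fell, beside 1399 and 2161 of all 9155 genes. NUP205, NUP153, IPO7, RCC1, RANBP10, THOC3 and THOC1 lost their calls there. Each array was also left out in turn, in 4 fits that dropped the block and left 1 treatment with 1 array. They ignore the pairing, so a call lost in them is not due to the missing array alone. The range of a change over them holds part of the difference between calves. In each of them fewer members rose and fewer fell than in the main fit, and the same held over all 9155 genes. The calls of 7 risers (NUP93, NUP188, NUP50, KPNA4, IPO4, RAN and NXT1) and 4 fallers (NUP37, NUP43, IPO8 and IPO11) held in each of these 4 fits. Scaled to the hybridization controls, 1 member rose and 45 fell, beside 286 risen and 8182 fallen of all 9155 genes. Of the 18 risers, 13 changed sign, 8 of them called as falls. The 5 that stayed above 0 were NUP93, NXT1, NUP42, IPO4 and NUP50, and NUP93 alone among them passed the test there. Limma's adjusted p on that scale went down to 2.08e-42 (IPO11), beside 6.95e-05 for the same gene in the main fit. Such values are not credible with 4 arrays, so calls on that scale are not comparable with the main calls.

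**Figure D1:**
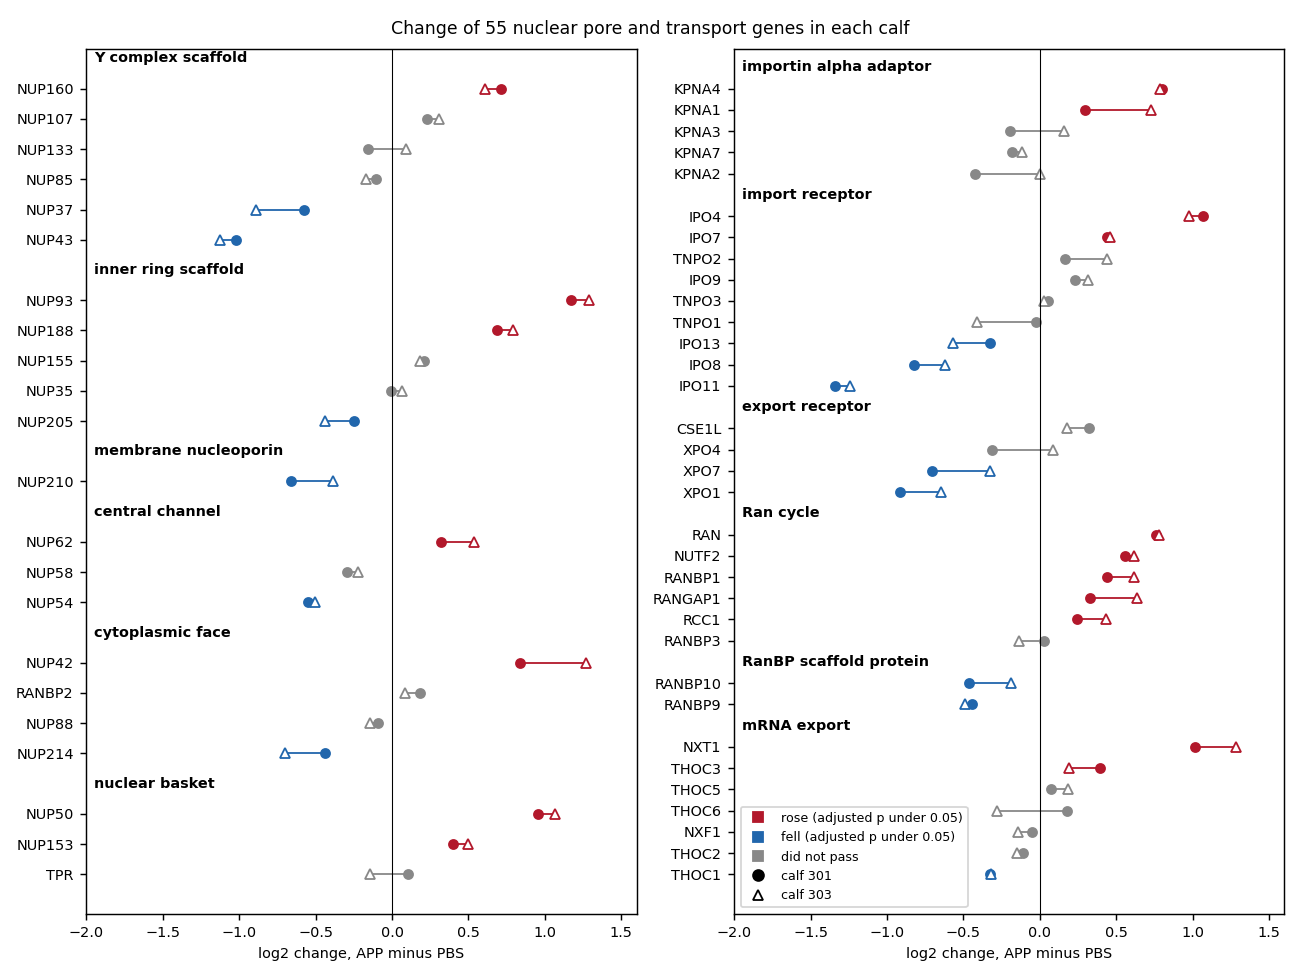
Log2 change (APP minus PBS) of each of the 55 genes, grouped by role, with a filled circle for calf 301 and an open triangle for calf 303. Red genes rose, blue genes fell and grey genes did not pass limma's test, with changes between -1.29 (IPO11) and 1.23 (NUP93) in the mean of the calves. Rises under 0.85 change sign when arrays are scaled to the hybridization controls.

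In the Ran cycle, 5 of 6 measured genes rose with APP, beside 23% of all genes. RAN is the GTPase whose GTP-bound form marks the nucleus, RCC1 is its exchange factor on chromatin, RANGAP1 makes it hydrolyse GTP on the cytoplasmic side, RANBP1 assists RANGAP1, and NUTF2 carries spent Ran back into the nucleus. These 5 genes rose, none fell, and the median change of the 6 was 0.51, although all 5 had a negative sign when scaled to the hybridization controls. On that scale RANBP1, RANGAP1 and RCC1 were called as falls (limma adjusted p = 0.0393, 0.0181 and 0.000987). As said above, calls on that scale are not comparable with the main calls. RAN stood at -0.46 (calf 301) and -0.42 (calf 303) with PBS and at 0.30 and 0.35 with APP. That is a 1.70-fold rise (log2 change 0.77 ± 0.01, SD, n = 2 calves, limma adjusted p = 0.000564), and the calves almost coincided. NUTF2 went from -0.36 and -0.26 with PBS to 0.20 and 0.35 with APP, a change of 0.58 ± 0.04.

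RANBP1 stood at -0.30 and -0.34 with PBS and at 0.14 and 0.28 with APP (0.53 ± 0.13, SD, n = 2 calves). Of its 3 probe sets, at 1.12, 0.29 and 0.17, the first alone passed the test over probe sets. Taking the 1 probe set with the widest spread, a choice that favours larger changes, moved RANBP1 to 1.12. RANGAP1 stood at -0.19 and -0.34 with PBS and at 0.14 and 0.30 with APP (0.48 ± 0.22). RCC1 had -0.14 in both PBS samples and 0.10 and 0.29 with APP (0.34 ± 0.13), the smallest rise of the cycle. In all 5 genes both APP arrays exceeded both PBS arrays, as in 36.6% of all genes. Limma's adjusted p was 0.00214 for NUTF2, 0.00421 for RANBP1, 0.00999 for RANGAP1 and 0.0282 for RCC1.

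RANBP3, a cofactor that helps the exporter XPO1 bind cargo, was the member of this role that did not pass (0.03 in calf 301 and -0.13 in calf 303, limma adjusted p = 0.684). Limma's standard errors in the role ran from 0.095 (RAN) to 0.112 (RANGAP1). Calls held when 1 array was left out followed the size of the change. Those fits also dropped the calf block, so they do not measure precision. RAN kept its call whichever array was left out. NUTF2 lost it without the PBS array of calf 301 (range 0.51 to 0.66 over the 4 fits), and RANBP1 without either PBS array (0.46 to 0.60). RANGAP1 kept it only without the APP array of calf 301 (0.40 to 0.56), and RCC1 in none of the 4 (0.24 to 0.43).

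**Figure D2:**
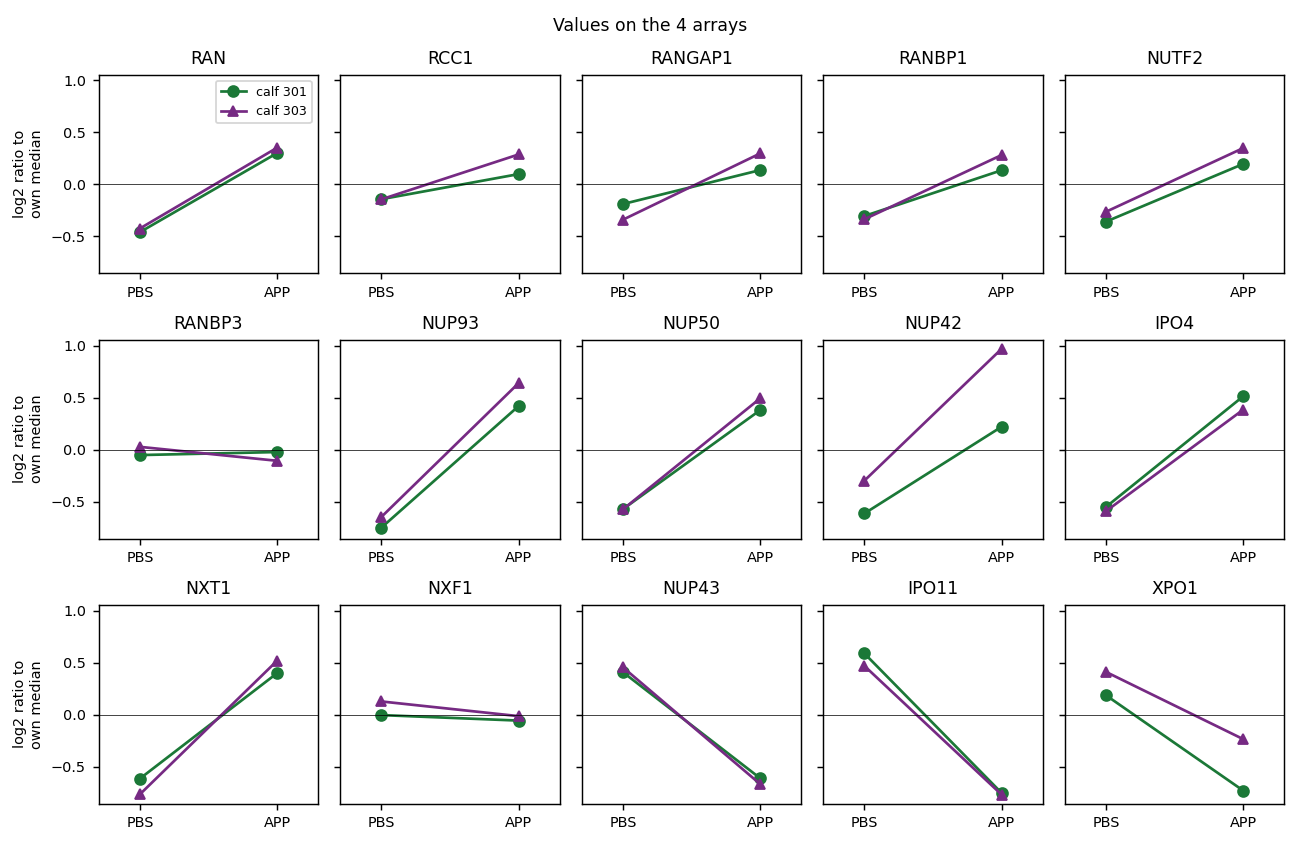
Log2 ratio of 15 genes to their own median on each of the 4 arrays, with a line from PBS to APP for calf 301 (circles) and calf 303 (triangles). RAN, RCC1, RANGAP1, RANBP1, NUTF2, NUP93, NUP50, NUP42, IPO4 and NXT1 climb in both calves, NUP43, IPO11 and XPO1 descend, and the lines of RANBP3 and NXF1 stay near 0. The first 5 named change sign when arrays are scaled to the hybridization controls.

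Of 4 export receptors measured, XPO1 and XPO7 fell (beside 29.7% of all genes), and CSE1L and XPO4 did not pass. The median change was -0.31, and the difference from the Ran genes was not tested. XPO1, the receptor for leucine-rich nuclear export signals and the exporter of many signalling proteins, stood at 0.19 and 0.41 with PBS and at -0.73 and -0.23 with APP. It fell 1.72-fold (-0.78 ± 0.19, SD, n = 2 calves, limma adjusted p = 0.000959), with both APP arrays below both PBS arrays, as in 37.2% of all genes. XPO7, which exports folded proteins of several kinds, fell 1.43-fold (-0.52 ± 0.26), with 0.18 and 0.16 under PBS and -0.52 and -0.17 under APP. CSE1L, which returns importin alpha to the cytoplasm, changed by 0.32 and 0.18 in the calves (limma adjusted p = 0.0691). Its APP arrays both lay above both PBS arrays, as in 36.6% of all genes, and its sign turned negative when scaled to the hybridization controls. XPO4, an exporter of the translation factor eIF5A, had changes of -0.31 (calf 301) and 0.08 (calf 303). Its probe sets stood at -0.69, -0.0015 and 0.35, and the first alone passed the test over probe sets.

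The fall of XPO1 rests on 1 probe set. Its call was lost without the APP array of calf 301 and without the PBS array of calf 303, with changes between -1.03 and -0.53 over the 4 fits. XPO7 kept its call only without the APP array of calf 303 (-0.69 to -0.34).

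Of 9 measured import receptors of the importin beta family, IPO4 and IPO7 rose, IPO11, IPO8 and IPO13 fell, and 4 did not pass, with a median of 0.04. These shares lie near those of all genes (23% risen and 29.7% fallen). IPO11, which carries ubiquitin-conjugating enzymes into the nucleus, fell more than any other of the 55 genes. It stood at 0.59 and 0.47 with PBS and at -0.75 and -0.77 with APP, a 2.45-fold fall (-1.29 ± 0.07, SD, n = 2 calves, limma adjusted p = 6.95e-05). Both of its probe sets fell (-1.46 and -1.12). IPO4, a carrier of histones, went the other way, from -0.55 and -0.59 with PBS to 0.51 and 0.38 with APP, a 2.03-fold rise (1.02 ± 0.06) that stayed at 0.17 when scaled to the hybridization controls.

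The close relatives IPO7 and IPO8 diverged. IPO7, a carrier of ribosomal proteins and linker histone, stood at -0.35 and -0.13 with PBS and at 0.09 and 0.34 with APP (0.45 ± 0.01, SD, n = 2 calves), which becomes -0.40 when scaled to the hybridization controls. IPO8 stood at 0.40 and 0.33 with PBS and at -0.43 and -0.29 with APP (-0.72 ± 0.14), and its 2 probe sets fell alike (-0.74 and -0.70). Limma's adjusted p was 0.00645 for IPO7 and 0.00107 for IPO8. IPO13, which works in both directions through the pore, fell by 0.32 and 0.57 in the calves. IPO7 kept its call only without the APP array of calf 301 (0.33 to 0.58 over the 4 fits), and so did IPO13 (-0.53 to -0.36).

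The transportins, carriers of RNA-binding proteins, did not pass when probe sets were averaged. TNPO2 (0.30, limma adjusted p = 0.0503) and IPO9 (0.27, limma adjusted p = 0.0505) lay just outside the threshold, and both signs turn when scaled to the hybridization controls. With the 1 probe set of widest spread per gene, TNPO2 passed as a rise (0.36, limma adjusted p = 0.0434) and TNPO1 as a fall (-0.40, limma adjusted p = 0.0268). That choice favours larger changes, so it is no independent support. IPO9 passed after quantile normalization (0.32, limma adjusted p = 0.0397). TNPO1, the paralog of TNPO2, had changes of -0.02 (calf 301) and -0.41 (calf 303), and TNPO3, the receptor of splicing factors with serine and arginine repeats, by 0.06 and 0.03.

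Importin alpha adaptors bind the classical nuclear localization signal and hand the cargo to importin beta. They rose in 2 of 5 cases and fell in none, beside 23% and 29.7% of all genes. KPNA4 stood at -0.42 and -0.41 with PBS and at 0.38 and 0.37 with APP (0.79 ± 0.01, SD, n = 2 calves, limma adjusted p = 0.00049), which becomes -0.06 when scaled to the hybridization controls. Its probe sets stood at 1.21, past the test over probe sets, and at 0.38, not past it. KPNA1, an adaptor of STAT proteins, stood at -0.17 and -0.30 with PBS and at 0.12 and 0.43 with APP (0.51 ± 0.30), -0.34 on the other scale. The gap between its calves, 0.43, was among the 3 widest of the 55 genes. KPNA1 kept its call only without the APP array of calf 301 (0.36 to 0.67 over the 4 fits).

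KPNA3, the closest relative of KPNA4, had a gene value of -0.02 that hid a split. One of its probe sets rose by 0.72 (0.59 in calf 301 and 0.85 in calf 303) and the other fell by 0.75 (-0.98 and -0.53), and each passed limma's test over probe sets (adjusted p = 0.0042 and 0.00679). KPNA2, often linked with dividing cells, changed by -0.42 in calf 301 and 0.00 in calf 303. KPNA7, known mainly from oocytes and early embryos, changed by -0.18 and -0.11.

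Among 22 nucleoporins, 7 rose, 6 fell and 9 did not pass, and the median change was 0.00. The rises were 31.8% beside 23% of all genes, and the falls 27.3% beside 29.7%. In the inner ring, the scaffold that anchors the pore to the membrane, NUP93 had the largest rise of all 55 genes. It stood at -0.75 and -0.65 with PBS and at 0.42 and 0.64 with APP, 2.34-fold (1.23 ± 0.08, SD, n = 2 calves, limma adjusted p = 8.58e-05). It was the gene whose rise still passed when scaled to the hybridization controls (0.38, limma adjusted p = 0.0155), where calls are not comparable with the main ones. NUP93 binds the large scaffold proteins NUP188 and NUP205, which are related to each other. NUP188 stood at -0.35 and -0.52 with PBS and at 0.33 and 0.27 with APP (0.74 ± 0.08), -0.11 on the other scale. NUP205 stood at 0.11 in both PBS samples and at -0.14 and -0.33 with APP (-0.34 ± 0.13, limma adjusted p = 0.0263). NUP155 and NUP35, also of the inner ring, changed by 0.19 and 0.03 and did not pass. NUP205 lost its call in each of the 4 fits that left out 1 array (-0.44 to -0.25).

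The Y complex, which forms the outer rings, was mixed. NUP43 and NUP37, small propeller proteins on its arms, fell, NUP160 rose, and NUP107, NUP133 and NUP85 did not pass. NUP43 stood at 0.41 and 0.46 with PBS and at -0.61 and -0.67 with APP, a 2.10-fold fall (-1.07 ± 0.07, SD, n = 2 calves, limma adjusted p = 0.000144). NUP37 fell 1.66-fold (-0.73 ± 0.22) from 0.27 and 0.39 with PBS to -0.30 and -0.50 with APP, and all 3 of its probe sets fell. NUP160 stood at -0.56 and -0.21 with PBS and at 0.16 and 0.40 with APP (0.66 ± 0.08), -0.19 on the scale of the hybridization controls. NUP107 changed by 0.27 (limma adjusted p = 0.0511). NUP160 lost its call without the PBS array of calf 301 and without the APP array of calf 303 (0.48 to 0.84 over the 4 fits).

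In the central channel, where phenylalanine-glycine repeats form the permeability barrier, NUP62 rose and its partner NUP54 fell. NUP62 stood at -0.19 and -0.36 with PBS and at 0.13 and 0.17 with APP (0.43 ± 0.15, SD, n = 2 calves), -0.42 on the scale of the hybridization controls. The probe sets of NUP62 stood at 0.69, past the test over probe sets, and at 0.17, not past it. NUP54 stood at 0.13 and 0.35 with PBS and at -0.42 and -0.16 with APP (-0.53 ± 0.03). Limma's adjusted p was 0.0117 for NUP62 and 0.00336 for NUP54. NUP58, the third protein of this complex, changed by -0.30 and -0.22 in the calves (limma adjusted p = 0.0572). NUP62 lost its call in each of the 4 fits that left out 1 array (0.34 to 0.51), and NUP54 kept it only without the APP array of calf 303 (-0.66 to -0.40). NUP210, a glycoprotein of the pore membrane, fell by 0.66 in calf 301 and 0.39 in calf 303, and it too kept its call only without the APP array of calf 303 (-0.71 to -0.34). Its 3 probe sets differed, at -1.08, -0.61 and 0.11, and the call was lost without the probe set that matches several transcripts (-0.25, limma adjusted p = 0.0692).

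On the nuclear side, the basket proteins NUP50 and NUP153 rose. NUP50, which helps importin alpha release its cargo, stood at -0.57 and -0.58 with PBS and at 0.38 and 0.49 with APP (1.01 ± 0.08, SD, n = 2 calves, limma adjusted p = 0.00019), 0.16 on the scale of the hybridization controls. NUP153, the anchor of the basket, stood at -0.30 and -0.13 with PBS and at 0.09 and 0.37 with APP (0.45 ± 0.07), -0.40 on that scale. NUP153 kept its call only without the APP array of calf 301 (0.31 to 0.59 over the 4 fits). TPR, which forms the basket filaments, had changes of 0.10 (calf 301) and -0.15 (calf 303). This average joined probe sets at -0.32 and 0.28, neither past the test over probe sets.

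On the cytoplasmic side, NUP42 rose and NUP214 fell. NUP42, a docking site for the export factor GLE1, stood at -0.61 and -0.30 with PBS and at 0.22 and 0.97 with APP (1.05 ± 0.31, SD, n = 2 calves, limma adjusted p = 0.000491), 0.20 on the scale of the hybridization controls. Its calves differed by 0.43 in the change, and its call was lost without the PBS array of calf 301 (0.68 to 1.43 over the 4 fits). NUP214, which docks the RNA helicase DDX19, stood at 0.14 and 0.29 with PBS and at -0.30 and -0.40 with APP (-0.57 ± 0.18), and lost its call without the PBS array of calf 303 (-0.65 to -0.49). This average joined probe sets that disagreed, 1 at -1.53 and 1 at 0.40, each past limma's test over probe sets (adjusted p = 0.000531 and 0.0272). NUP88, the partner of NUP214, and RANBP2, which forms the cytoplasmic filaments, changed by -0.12 and 0.13 and did not pass.

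**Figure D3:**
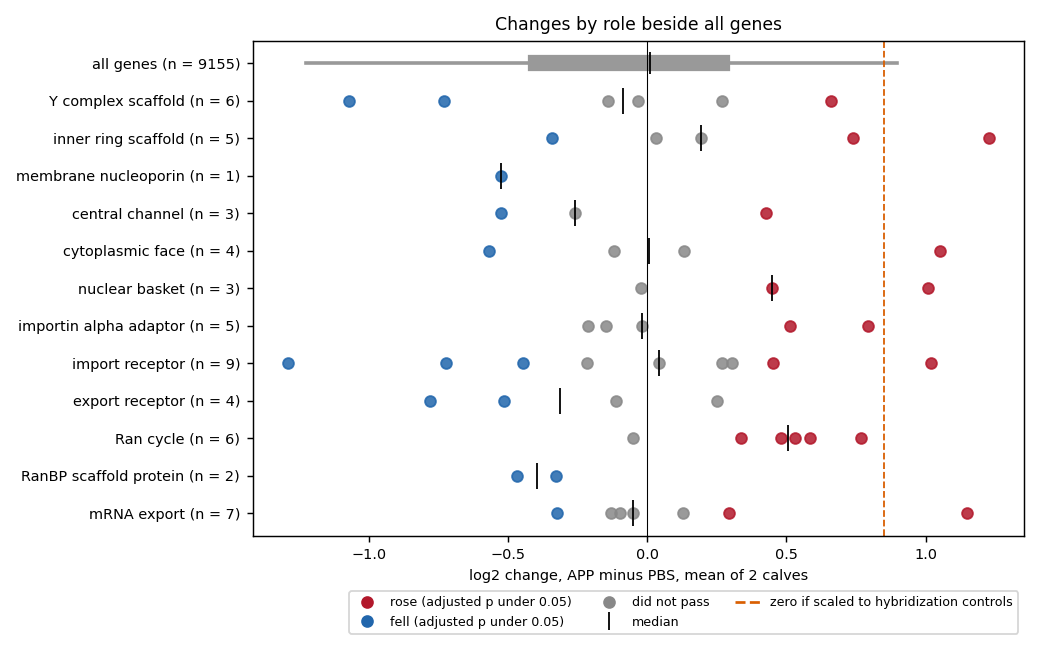
Log2 change (APP minus PBS, mean of 2 calves) of the 55 genes by role, each dot a gene coloured by limma's call and each black bar the median of the role. The grey band holds the middle of all 9155 genes from percentile 25 to 75 and its thin line from 5 to 95, and the dashed line at 0.85 is where zero would lie if arrays were scaled to the hybridization controls. The Ran cycle has its median at 0.51, and all its dots lie left of the dashed line.

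Messenger RNA leaves through NXF1 and its small partner NXT1, which the THO complex helps to load. NXT1 stood at -0.61 and -0.77 with PBS and at 0.40 and 0.52 with APP, a 2.22-fold rise (1.15 ± 0.19, SD, n = 2 calves, limma adjusted p = 0.000171), 0.30 on the scale of the hybridization controls. NXF1 itself had 0.00 and 0.13 with PBS and -0.06 and -0.01 with APP, and its change of -0.10 did not pass (limma adjusted p = 0.429). Among 5 THO subunits, THOC3 rose (0.29 ± 0.15, limma adjusted p = 0.0476) and THOC1 fell (-0.33 in calf 301 and -0.32 in calf 303). THOC2, THOC5 and THOC6 did not pass, and THOC6 had the widest gap between calves of all 55 genes (0.18 in calf 301 and -0.28 in calf 303). THOC3 and THOC1 each lost the call in all 4 fits that left out 1 array (0.21 to 0.37 and -0.38 to -0.27), and THOC3 lost it too after quantile normalization (0.36, limma adjusted p = 0.0546), array centring (0.29, limma adjusted p = 0.0532) and with 1 probe set per gene (0.29, limma adjusted p = 0.0727). THOC3 stood at -0.56 on the scale of the hybridization controls.

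RANBP9 and RANBP10, related scaffold proteins of a ubiquitin ligase complex that carry the Ran-binding name, both fell. RANBP9 stood at 0.15 and 0.30 with PBS and at -0.29 and -0.19 with APP (-0.47 ± 0.03, SD, n = 2 calves, limma adjusted p = 0.0057). RANBP10 fell by 0.46 in calf 301 and 0.19 in calf 303 (limma adjusted p = 0.0396), and its probe sets stood at -0.68, -0.35 and 0.04. Both genes kept their calls only without the APP array of calf 303 (-0.54 to -0.39 for RANBP9 and -0.47 to -0.18 for RANBP10). Quantile normalization ended the call of RANBP10 (-0.24, limma adjusted p = 0.119).

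Over single probe sets, 18 of the 86 rose and 23 fell, beside 16.3% and 23.6% of all probe sets. Of the 21 genes with several probe sets, 10 had probe sets on both sides of 0, and 11 had a spread of more than 0.5 in the log2 change. KPNA3 and NUP214 were the genes with probe sets called in opposite directions. Taking 1 probe set per gene, the one with the widest spread over the 4 arrays, in place of the average gave 18 rises and 18 falls, with KPNA3 (-0.75), XPO4 (-0.69), NUP85 (-0.43) and TNPO1 (-0.40) as added falls. That spread includes the difference between APP and PBS, so the choice favours larger changes and the added calls are not independent support. The other 34 genes rest on 1 probe set each, NUP93, NXT1, NUP43, NUP50, IPO4 and XPO1 among them.

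**Figure D4:**
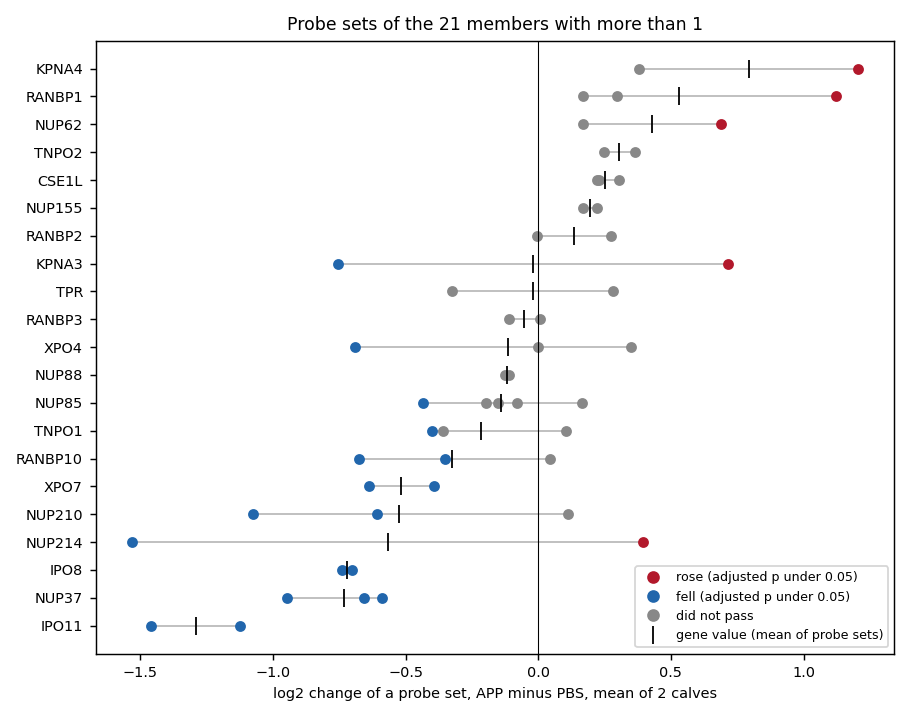
Log2 change (APP minus PBS, mean of 2 calves) of each probe set of the 21 genes that have several, coloured by limma's call over probe sets, with a black bar at the gene's mean. The probe sets of IPO8 (-0.74 and -0.70) nearly coincide, while those of NUP214 (-1.53 and 0.40) and KPNA3 (-0.75 and 0.72) lie on opposite sides of 0.

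No member passed limma's test for the difference between calf 303 and calf 301, where 1.7% of all genes passed (1.27% higher and 0.437% lower in calf 303). With so small a share over all genes, a count of 0 among 55 is near the background. An unadjusted p under 0.05 was found for 8 members and for 1562 of all 9155 genes. The differences ran from -0.28 (THOC6) to 0.53 (NUP42). The change with APP had the same sign in both calves for 47 of the 55 genes, beside 7751 of all 9155. It was higher in calf 303 for 33, beside 4876 of all 9155. Across the 55 genes, which share the arrays and are not replicates, the changes in the calves correlated with Pearson r = 0.932 and Spearman rho = 0.927.

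Genes that work beside these members were listed as well, and their counts stand beside 23% of all genes risen and 29.7% fallen. Of 11 other nucleoporins and pore partners, 4 rose and 4 fell (median -0.22). The helicases DDX19A (0.89) and DDX19B (0.69), which strip proteins from exported messenger RNA and whose near-identical sequences may share signal, rose, while GLE1, their activator, fell by 0.87. MAD2L1, a spindle checkpoint protein that binds the basket in interphase, fell by 0.98 and was 2.02 higher in calf 303 than in calf 301. Scaled to the hybridization controls, DDX19B turns negative. The pore gene AHCTF1, which starts pore assembly on chromatin, fell by 0.75.

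Of 19 messenger RNA export partners, 6 rose and 5 fell, with a median of -0.05. ALYREF, the adaptor that hands messenger RNA to NXF1, rose by 1.01, and DDX39A, a helicase of the same step, by 0.99. PCID2, of the TREX-2 complex at the basket, fell by 1.22, and MCM3AP, the scaffold of that complex, by 0.76, while ENY2, another of its subunits, rose by 0.55. The rise of ENY2 turns negative when scaled to the hybridization controls. Among 13 transport adaptors and regulators 2 rose and 3 fell (median -0.03). LTV1, a factor of small subunit export, rose by 1.08, the chaperone CALR by 0.90, and SUMO3 fell by 0.90.

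Of 12 lamina and envelope genes 3 rose and 4 fell (median -0.01), and LAP3, a peptidase that the list holds by its name alone, is among the 5 that did not pass. LMNA, the A-type lamin, was 3.05-fold higher with APP (log2 change 1.54 and 1.68 in the calves), and SYNE2, which ties the envelope to the cytoskeleton, fell 4.26-fold (-2.15 and -2.03). TOR1AIP2, an activator of the envelope ATPase torsin, rose by 0.75, a rise that turns negative under the hybridization control scaling.

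Of 10 measured genes of pre-ribosome maturation and export, 9 rose and none fell, beside 23% of all genes risen. Their median was 1.21, beside 0.01 over all genes. The count is not one of transport genes alone. The largest rises were those of PNO1 (2.26), TSR1 (2.05) and MDN1 (1.87), factors of ribosomal subunit maturation that act along the way to the pore. NMD3, the adaptor through which XPO1 exports the large subunit, changed by -0.01 in calf 301 and 0.22 in calf 303 (limma adjusted p = 0.438). LTV1 and NMD3 also stand in the adaptor list above.

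**Figure D5:**
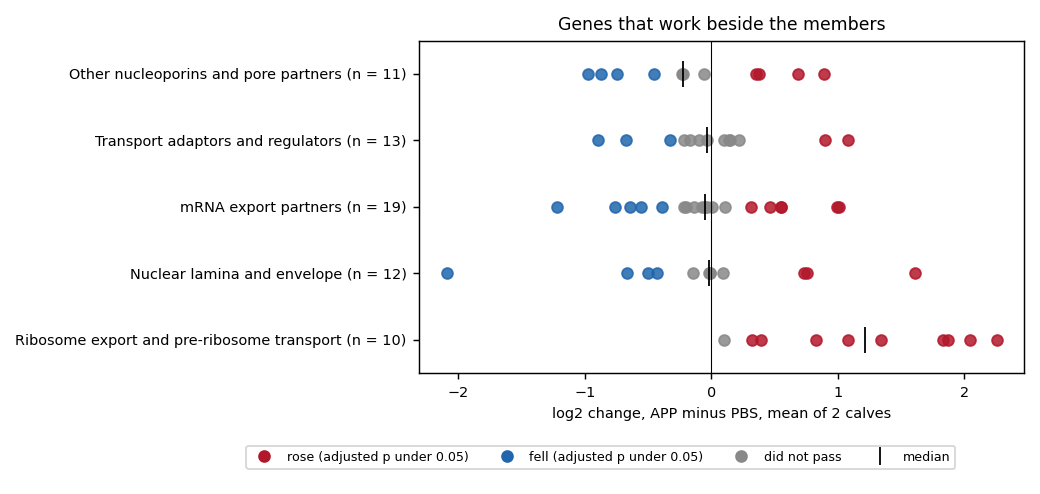
Log2 change (APP minus PBS, mean of 2 calves) of genes outside the 55, in 5 lists, each dot a gene coloured by limma's call and each black bar a median. The list of ribosome export and pre-ribosome transport, which includes maturation factors, has its median at 1.21 and 9 of 10 genes in red. The other lists have medians between -0.22 and -0.01. Rises under 0.85 change sign when arrays are scaled to the hybridization controls.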

How the data were processed

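The 4 arrays were analysed as 1 per calf and treatment, grouped by their titles. Per the submitters' processing notes the authors summarised probe sets with RMA, with version and options not given in the sources used here. The deposited values are linear ratios, which was found from the values. After 1 factor per array (0.998 to 1.02), the mean of the middle values of each of the 24128 probe sets lay within 0.000511 of 1. Depth does not exist for arrays, and precision is set by their number. Log2 of the ratio was taken with no further normalization, the 112 control probe sets were left out, and probe sets with 1 gene symbol (13292) were averaged by gene. Symbols were updated through the RefSeq gene table of ARS-UCD2.0, which changed no member.

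APP against PBS was fitted over all genes with limma 3.58.1 in R 4.3.3 (two-sided, calf as a block, 1 residual degree of freedom, 5.86 prior degrees of freedom, Benjamini-Hochberg adjustment, threshold 0.05), and the fit was tested on simulated data. Pairing comes from the titles, in which both treatments carry the numbers of the same calves. The calf difference correlated between PBS and APP with r = 0.514 over probe sets and r = 0.355 over the 55 members. An exact permutation test of 2 against 2 arrays cannot go below p = 0.333 and was not run.

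Members and lists were chosen with earlier results of these data known. Named in any case were RAN, RCC1, RANGAP1, NUTF2, XPO1, CSE1L, NXF1 and TPR (KPNB1 and NUP98 had no value). Beside these, up to 4 called members per role with the largest change, the 3 with the widest gap between calves, the 3 whose probe sets differ most and up to 3 genes per related list were named. All other names were chosen after their values were seen. Alternatives were other scalings, no block, 1 probe set per gene, a filter on probe sets that match several transcripts, updated symbols and leaving out each array. Lists of NK, alpha beta T, and erythroid and platelet markers held 3, 3 and 5 measured genes, of which 1, 1 and 0 rose and 0, 1 and 0 fell in limma's test (1, 2 and 0 with an unadjusted p under 0.05). Of 143 listed names 100 were matched. Sequences were not used here.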

Additional observations from a re-analysis of the deposited data

Results flagged for a closer look

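The hybridization controls bioB, bioC and bioD, 14 probe sets that enter no comparison, read 0.851 higher with APP than with PBS on the log2 scale in the mean of the calves (0.761 in calf 301 and 0.941 in calf 303).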

How the results depend on the processing

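With no replicate block 14 members rose and 11 fell, beside 1399 and 2161 of all 9155 genes, and 25 of the 32 calls were kept. Array centring, quantile normalization, the filter on probe sets and updated symbols kept the counts within 1.5 times (17 to 19 rises, 13 to 14 falls), and 1 probe set per gene gave 18 rises and 18 falls, but 7 rather than 4 members with 2-fold changes in both calves. The probe set taken was the one with the widest spread, a choice that favours larger changes. Leaving out 1 array gave fewer rises and falls than the main fit, as over all genes, in fits with fewer samples and no block. Scaling to the hybridization controls gave 1 rise, 45 falls and 15 members with 2-fold changes, with calls that are not comparable with the main ones. It moved rises from 43.6% to 3.38% of all gene calls. Under it CSE1L stood at -0.60, IPO7 at -0.40, KPNA1 at -0.34, KPNA4 at -0.059, NUP153 at -0.40, NUP160 at -0.19, NUP188 at -0.11 and NUP62 at -0.42. NUTF2 stood at -0.27, RAN at -0.082, RANBP1 at -0.32, RANGAP1 at -0.37, RCC1 at -0.51 and THOC3 at -0.56. Each moved by the same shift of -0.85, so the order of the genes was not changed. All 14 falls kept their sign and call under it. A shift down can only enlarge a fall, so this is no check on the falls. Signal over background is unknown on this ratio scale, so genes near background could not be left out.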
